A study of Mus musculus with 14 samples.

Results

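Cdkn1c, Phlda2, Grb10, Ascl2, Kcnq1, Slc22a18, Zim1 and Osbpl5 are mouse imprinted genes known to be expressed mainly from the allele inherited from the mother in at least some tissues. The 8 genes were listed by symbol and looked up in the authors' table of CPM, reads scaled to the size of the library, which held 16181 genes. The table held 7 of the 8 symbols. Kcnq1 was not among them and was taken from the count table of 50686 genes. The reads were counted per gene over both alleles, so every value below is the total level of a gene and none tells the maternal from the paternal copy.

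Mouse embryonic stem cells (ESCs) carrying a short hairpin RNA against the exoribonuclease gene Dis3l2 (shDis3l2) or against the bacterial gene LacZ (shLacZ, the control line) were differentiated as embryoid bodies (EBs), floating aggregates in which cells of several germ layers form. PolyA RNA was sequenced from undifferentiated ESCs in LIF and 2i (d0) and from EBs in serum without LIF and 2i on 6 even days, d2 to d12. The knockdown was stable and, per the study's results, the cells carried an Osr1-GFP reporter of renal progenitors. Each line and day gave 1 library, 14 in all. There were thus no replicate cultures, and the knockdown and any other difference between the 2 lines cannot be told apart.

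Imprinting is set by DNA methylation that differs between egg and sperm and is kept in the embryo at imprinting control regions. The Kcnq1 domain of distal chromosome 7 holds a control region inside Kcnq1, from which the long noncoding RNA Kcnq1ot1 is made on the paternal copy, where it is known to silence neighbouring genes in cis. Many genes active on the maternal copy restrain growth of the embryo or the placenta, whereas Igf2, active on the paternal copy, promotes it. Grb10 is known as an exception in neurons, where its paternal copy is used.

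The members lay in 3 places. Ascl2, Kcnq1, Cdkn1c, Slc22a18, Phlda2 and Osbpl5 lay within 790 kb of distal chromosome 7 (GRCm38, chr7:142966829-143756985), and only 2210 bases separated Slc22a18 from Phlda2. Zim1 lay near the other end of the same chromosome (chr7:6671269-6696450), in the imprinted domain of Peg3. Grb10 lay on chromosome 11 (chr11:11930508-12038683).

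Promoter windows of 300 bases from RefSeq (GRCm38.p6, from 250 bases before to 50 bases after a start) were matched for 6 of the 8 genes, with 9 windows. Cdkn1c and Kcnq1 had no entry. The windows below belong to 4 genes called higher in shDis3l2 over d6 to d12, of which Slc22a18 rested on few reads. They are shown because their CpG content, on which DNA methylation can act, differed widely. CpG dinucleotides are in capitals and each window is written 5′ to 3′ on the strand of its gene.
Zim1 (chr7:6696383-6696682, minus strand): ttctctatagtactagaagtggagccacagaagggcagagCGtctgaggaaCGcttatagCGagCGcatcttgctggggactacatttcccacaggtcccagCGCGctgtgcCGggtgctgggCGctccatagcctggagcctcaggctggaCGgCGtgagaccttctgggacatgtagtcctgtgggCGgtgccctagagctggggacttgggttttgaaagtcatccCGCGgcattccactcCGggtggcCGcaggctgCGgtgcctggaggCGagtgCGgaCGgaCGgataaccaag
Phlda2 (chr7:143502475-143502774, minus strand): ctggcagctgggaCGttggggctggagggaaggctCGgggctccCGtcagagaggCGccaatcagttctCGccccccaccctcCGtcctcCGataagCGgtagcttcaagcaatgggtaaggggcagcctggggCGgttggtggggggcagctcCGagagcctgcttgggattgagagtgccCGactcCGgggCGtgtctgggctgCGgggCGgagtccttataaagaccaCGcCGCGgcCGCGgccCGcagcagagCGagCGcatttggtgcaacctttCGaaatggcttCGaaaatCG
Grb10, upstream start (chr11:12037371-12037670, minus strand): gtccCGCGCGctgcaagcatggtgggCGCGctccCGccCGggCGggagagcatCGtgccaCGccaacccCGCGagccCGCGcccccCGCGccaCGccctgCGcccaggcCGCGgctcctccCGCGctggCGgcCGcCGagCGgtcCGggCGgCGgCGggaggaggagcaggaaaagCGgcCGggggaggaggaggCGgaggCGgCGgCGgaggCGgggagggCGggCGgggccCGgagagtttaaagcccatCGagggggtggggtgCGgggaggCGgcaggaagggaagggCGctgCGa
Grb10, downstream start (chr11:12027922-12028221, minus strand): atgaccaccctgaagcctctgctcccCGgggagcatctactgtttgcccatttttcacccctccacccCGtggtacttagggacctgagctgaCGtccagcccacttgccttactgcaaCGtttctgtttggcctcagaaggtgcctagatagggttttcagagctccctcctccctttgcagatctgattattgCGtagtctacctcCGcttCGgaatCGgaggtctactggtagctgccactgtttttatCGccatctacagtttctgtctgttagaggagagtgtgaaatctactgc
Slc22a18 (chr7:143473539-143473838, plus strand): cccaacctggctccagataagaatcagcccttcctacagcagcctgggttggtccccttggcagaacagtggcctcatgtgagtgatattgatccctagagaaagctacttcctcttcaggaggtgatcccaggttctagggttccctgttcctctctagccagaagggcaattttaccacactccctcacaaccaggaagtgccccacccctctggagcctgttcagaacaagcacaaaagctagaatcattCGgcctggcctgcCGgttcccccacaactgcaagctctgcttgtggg

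The upstream Grb10 window held 45 CpGs, and 98.4% of all 32851 windows held that many or fewer. The Phlda2 window held 26, the Ascl2 window 23 and the Zim1 window 20, against a median of 7 over all windows. Of all windows, 84.5%, 80.0% and 75.2% held that many or fewer, in the same order. The Slc22a18 window held 2, and the 3 Osbpl5 windows held 21, 1 and 16. The letters TGCCGC, the core that the imprint-protecting factor ZFP57 is known to recognise when methylated, were searched on both strands and occurred once each in the Zim1 window, the upstream Grb10 window and 1 Osbpl5 window. Of all windows, 11.6% held them. The letters TATAAA, also searched on both strands, occurred among the members in the Phlda2 window alone, and in 13.6% of all windows. A match of letters is a description and not a binding site.

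The libraries held from 7178712 to 39888099 reads on genes (median 18277650). A floor of 3 reads corresponded to 0.0752 to 0.418 CPM. The targeted mRNA, Dis3l2, in the libraries labelled shDis3l2 stood at 13.7% of the shLacZ level at d0, 28.1% 2 days later and 32.1% at d4. From d6 on it stood at 55.2%, 97.1%, 95.0% and 75.4% in the order of the days. At d8 and d10 the 95% counting interval of the ratio held 1, so the label was not borne out by the mRNA on those days, and over d6 to d12 the fitted log2 difference of Dis3l2 was -0.35 (SE 0.16, edgeR adjusted p = 0.126). Lines are named below by their labels. Levels are CPM of the library total over all genes, and intervals are exact 95% intervals that cover counting error only.

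All 6 members that could be tested were higher in the libraries labelled shDis3l2 over d6 to d12, and 0 were lower. Zim1 was higher 8.31-fold, Cdkn1c 7.33-fold, Grb10 5.77-fold, Slc22a18 3.76-fold, Osbpl5 3.53-fold and Phlda2 2.69-fold. Ascl2 and Kcnq1 were too low to enter this test. Slc22a18 passed the filter on low counts through the libraries labelled shDis3l2 alone, with 0 of 4 shLacZ libraries at the limit of 0.834 CPM, so its count among the higher genes is no support, while the other 5 reached the limit in all 8 libraries. The test was edgeR's quasi-likelihood test on the counts of the 8 libraries from d6 on with day as a block, so that the days of 1 series stood in for replicates and the p-values measure how evenly the difference held from day to day. Of 17164 genes tested, 19.6% were called higher and 18.7% lower at an adjusted p under 0.05. The median log2 fold of the 6 members, Slc22a18 among them, was 2.22, against 0.02 over all genes tested. The log2 folds of the other 5 ran from 1.43 for Phlda2 to 3.05 for Zim1. In bulk RNA, fewer or more cells of a type and less or more RNA per cell cannot be told apart.

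When d8 and d10, the days on which Dis3l2 itself did not differ, were left out, the fitted log2 folds of the 6 members over the remaining d6 and d12 ran from 1.15 to 2.82. None of 15950 genes then passed edgeR's adjusted test. At an unadjusted p under 0.05 all 6 members and 3149 genes passed, and the members' adjusted p ran from 0.119 to 0.205. This alternative was chosen after the data were seen.

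**Figure D1:**
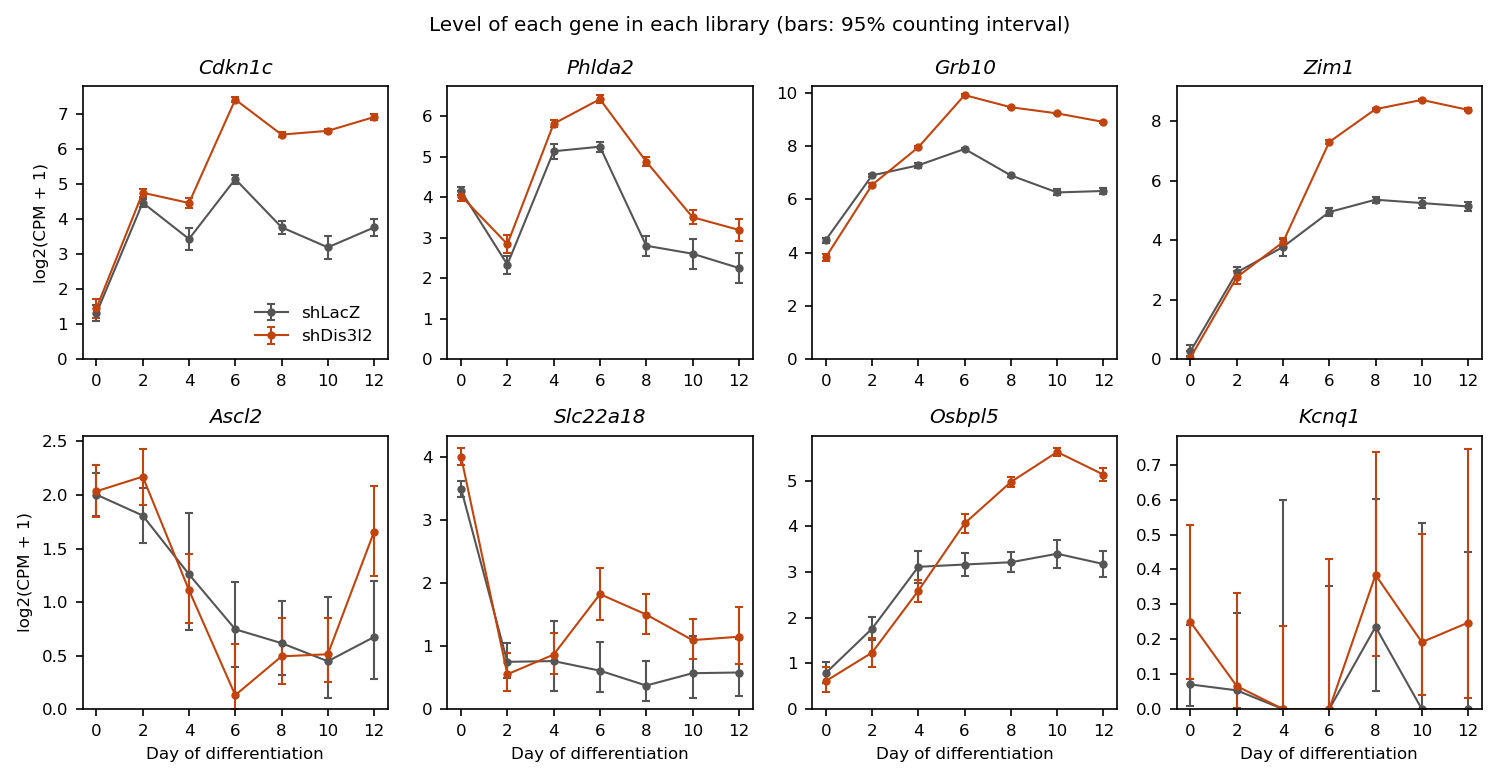
Level of the 8 genes on the log2(CPM + 1) scale by day, with the scale of each panel its own, for shLacZ (grey) and the libraries labelled shDis3l2 (orange); points are single libraries and bars are 95% counting intervals. For Cdkn1c, Grb10, Zim1 and Osbpl5 the 4 highest of the 14 libraries were those labelled shDis3l2 from d6 to d12. How many of all genes share this order was not counted.

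Among the growth-restraining genes, Cdkn1c encodes the cyclin-dependent kinase inhibitor p57, which holds cells out of the cell cycle. In shLacZ it measured 1.48, 21.0, 9.75, 34.0, 12.5, 8.11 and 12.5 CPM over the 7 days in order, d0 first. In the libraries labelled shDis3l2 it measured 1.74, 25.8, 20.9, 168, 83.4, 89.9 and 118 CPM. Both lines peaked at d6, and the 4 late libraries did not overlap between the lines. For this gene and those below, the share of all genes without such overlap was not counted. The single-day fold widened from 1.17 (95% interval 0.781 to 1.76) at d0 through 2.14 (1.66 to 2.80) at d4 to 11.1 (8.69 to 14.4) at d10. The fitted log2 fold over d6 to d12 was 2.87 (SE 0.19, edgeR adjusted p = 0.000339).

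Grb10 encodes an adaptor that binds the insulin and IGF1 receptors and dampens their signal. Its levels in shLacZ, again from d0 on, were 21.2, 118, 154, 236, 118, 75.4 and 78.3 CPM. In the libraries labelled shDis3l2 they were 13.1, 91.9, 246, 959, 699, 596 and 476 CPM. The counting intervals put the latter line below shLacZ at d0 and d2 and above it from d4 on, and the late libraries did not overlap between the lines. At d0 the fold was 0.620 (0.546 to 0.704). The median of all genes at d0 was -0.32 on the log2 scale by library totals, and the Grb10 fold was 0.738 with TMM-scaled library sizes and 0.813 with DESeq2 size factors. At d6 the fold was 4.07 (3.91 to 4.24) and at d10 it was 7.90 (7.29 to 8.57). The fitted log2 fold over d6 to d12 was 2.53 (SE 0.15, edgeR adjusted p = 0.000274).

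Phlda2 encodes a small pleckstrin homology domain protein known to restrain growth of the placenta. Its level at d2 lay below those at d0 and d4 in both lines. Its 7 shLacZ levels were 16.7, 4.06, 34.1, 37.0, 5.98, 5.08 and 3.77 CPM. The other line gave 15.3, 6.17, 55.3, 84.6, 28.4, 10.4 and 8.15 CPM. The late ranges overlapped, from 3.77 to 37.0 CPM against 8.15 to 84.6 CPM, as levels at d6 were several times those at d12 in both lines, while the difference had 1 direction on each late day. The single-day fold was 4.76 (3.84 to 5.94) at d8 and from 2.04 to 2.29 on the other 3 late days. The fitted log2 fold was 1.43 (SE 0.22, edgeR adjusted p = 0.00311), and without the day block the adjusted p was 0.354.

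Zim1, a zinc finger gene beside Peg3, was nearly silent in ESCs, with 8 reads in shLacZ and 1 read in the library labelled shDis3l2 at d0. From d2 on it measured 6.56, 12.7, 29.8, 40.1, 37.0 and 34.1 CPM in shLacZ. The libraries labelled shDis3l2 gave 5.75, 14.3, 157, 338, 419 and 332 CPM. The late libraries did not overlap between the lines. The intervals of the folds at d2 and d4 held 1, and from d6 the fold was 5.25 (4.71 to 5.88), 8.43 (7.79 to 9.14), 11.3 (10.1 to 12.7) and 9.74 (8.72 to 10.9). The fitted log2 fold was 3.05 (SE 0.18, edgeR adjusted p = 0.000255), the largest of the members and at place 168 of the 17164 genes tested.

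Osbpl5, which encodes an oxysterol-binding protein family member that moves lipids between membranes, crossed over between the lines. From d0 on it measured 0.727, 2.39, 7.66, 7.97, 8.28, 9.56 and 8.03 CPM in shLacZ, with little movement after d4. The libraries labelled shDis3l2 gave 0.529, 1.36, 5.03, 15.7, 30.4, 48.4 and 34.1 CPM, with no overlap of the late libraries between the lines. The fold was 0.567 (0.352 to 0.894) at d2 and 0.656 (0.469 to 0.927) at d4, and 5.07 (4.03 to 6.45) at d10. The fitted log2 fold over d6 to d12 was 1.82 (SE 0.22, edgeR adjusted p = 0.00141).

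Slc22a18, an organic cation transporter family gene, was highest in ESCs in both lines. It measured 10.3 CPM in shLacZ and 15.1 CPM in the library labelled shDis3l2 at d0, then 0.682 and 0.467 CPM at d2 and 0.697 and 0.821 CPM at d4. From d6 to d12 it stayed between 0.296 and 0.526 CPM in shLacZ, on 4 to 7 reads a library, and between 1.14 and 2.54 CPM in the other line, on 13 to 36 reads. The interval of the fold excluded 1 at d6 and d8 and held 1 at d10 and d12. The fitted log2 fold was 1.91 (SE 0.37, edgeR adjusted p = 0.00774).

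Ascl2 encodes a basic helix-loop-helix factor needed for the spongiotrophoblast of the placenta. It measured 3.01 CPM in shLacZ and 3.10 in the library labelled shDis3l2 at d0, 2.50 and 3.50 at d2, and 1.39 and 1.16 at d4. From d6 to d12 it ranged from 0.363 to 0.676 CPM in shLacZ and from 0.0942 to 2.15 CPM in the other line. The interval of the fold excluded 1 only at d12, with 6 and 23 reads and a fold of 3.62 (1.43 to 10.9). Kcnq1, a potassium channel subunit, had 0 to 3 reads in the shLacZ libraries and 0 to 6 in the others, where a difference was not detectable. Whether counting used strand is not given in the sources used here, and Kcnq1ot1 lies antisense within Kcnq1, so Kcnq1 reads can belong to either.

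**Figure D2:**
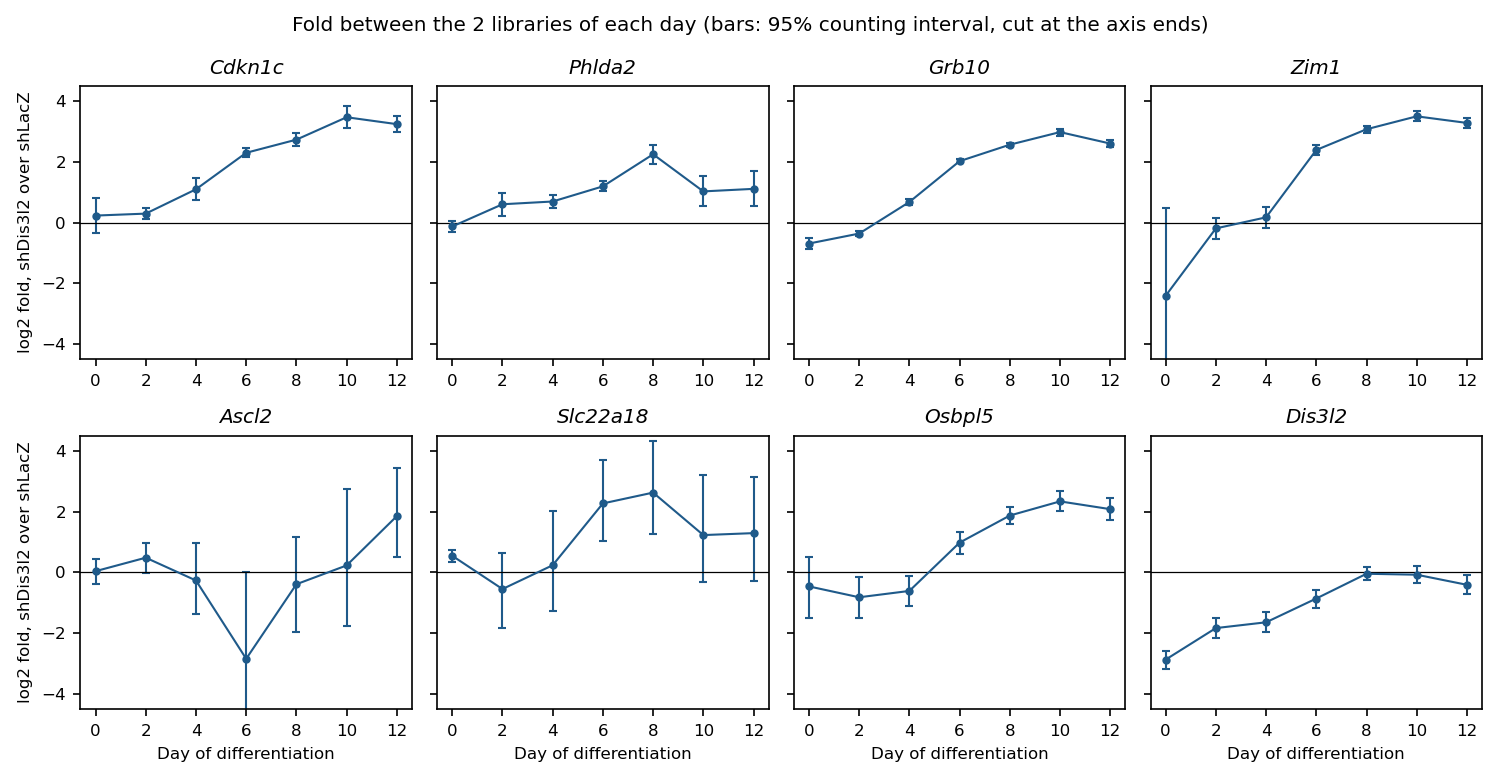
Log2 fold between the 2 libraries of each day, shDis3l2 over shLacZ, for 7 members and for the targeted gene Dis3l2; bars are 95% counting intervals, and the line at 0 marks equal levels. The folds of Cdkn1c, Phlda2, Grb10, Zim1, Osbpl5 and Slc22a18 lay above 0 from d6 on, with the intervals of Slc22a18 at d10 and d12 reaching below 0. Dis3l2 moved from 13.7% of shLacZ at d0 to 97.1% at d8.

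Counted day by day at a fold of at least 3 with at least 1 CPM in a library, 0 members were called at d0, d2 and d4. Among protein-coding genes, 0.584% were higher and 2.25% lower at d0, 0.114% and 0.129% at d2, and 0.361% and 1.68% at d4. On the late days 5 members, Cdkn1c, Phlda2, Grb10, Zim1 and Osbpl5, reached 1 CPM in both libraries. At d6, 3 of these 5, Cdkn1c, Grb10 and Zim1, were at least 3-fold higher, against 2.7% of genes higher and 4.23% lower. At d8 all 5 were, against 5.47% higher and 3.71% lower. At d10 and at d12, 4 of the 5 were, without Phlda2, against 8.68% and 3.12% at d10 and 8.07% and 1.5% at d12. Slc22a18 at d6 and d8 and Ascl2 at d12 were also past 3-fold, but they reached 1 CPM in the library labelled shDis3l2 alone and are not counted. With 1 library a side these are descriptions.

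The difference between the lines itself changed between the stages. In a fit of all 14 libraries with day as a block, the log2 difference between the lines was larger over d6 to d12 than over d0 to d4 by 3.04 for Zim1 (SE 0.31, edgeR adjusted p = 0.00160), 2.48 for Grb10 (SE 0.28, adjusted p = 0.00242), 2.32 for Osbpl5 (SE 0.35, adjusted p = 0.00650) and 2.20 for Cdkn1c (SE 0.30, adjusted p = 0.00415). These were 4 of 7 members tested, with 0 called in the other direction, against 4.85% and 5.24% of 20050 genes. Slc22a18 (1.50, SE 0.51, edgeR adjusted p = 0.0836) and Phlda2 (0.88, adjusted p = 0.0838) did not pass. Both passed edgeR's test with no filter on low counts (adjusted p = 0.0354 and 0.00853), which called 6 members. That setting also called more of all genes, 1788 higher and 1491 lower, against 972 and 1051 with the filter. Dis3l2 changed in the same direction, by 1.61 (SE 0.29, edgeR adjusted p = 0.0112). Without the day block 0 members and 0 genes were called. At an unadjusted p under 0.05, 1 member and 713 of 18939 genes then passed edgeR's test.

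Over all 7 days, 3 of 7 members were higher, against 1.91% of genes higher and 3.82% lower, and 0 were lower. The log2 folds were 1.97 for Cdkn1c (SE 0.39, edgeR adjusted p = 0.0253), 2.06 for Zim1 (SE 0.52, adjusted p = 0.0475) and 0.96 for Phlda2 (SE 0.21, adjusted p = 0.0312). Zim1 did not pass with library totals in edgeR (adjusted p = 0.0507) or with DESeq2 (log2 fold 1.68, adjusted p = 0.0505). Leaving out any 1 day of d6 to d12 left 0 of these calls, as did leaving out the day block, and the adjusted p of Cdkn1c then ran from 0.0783 to 0.0972 over the left-out days.

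Between stages, with both lines together, the members split. Zim1 (log2 change 3.94, SE 0.99, edgeR adjusted p = 0.00685), Osbpl5 (2.45, SE 0.63, adjusted p = 0.00754) and Cdkn1c (1.67, SE 0.65, adjusted p = 0.0485) were higher over d6 to d12 than over d0 to d4. Ascl2 (-2.22, SE 0.54, adjusted p = 0.00564) and Slc22a18 (-2.97, SE 0.90, adjusted p = 0.0172) were lower. These were 3 and 2 of 7 tested, against 18.7% of genes higher and 25.6% lower. The Slc22a18 change rested on d0, and without it the log2 change was 0.43 (edgeR adjusted p = 0.432). Cdkn1c lost its call when any day other than d2 was left out, with edgeR adjusted p from 0.0514 to 0.155, and also with library totals (0.0772) and with no filter (0.0501).

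Per kb of exon, mean levels over d6 to d12 in the libraries labelled shDis3l2 were 75.1 ± 22.6 CPM per kb for Grb10, 56.3 ± 18.8 for Cdkn1c, 38.5 ± 13.7 for Zim1 and 29.3 ± 31.8 for Phlda2 (SD over 4 days). Osbpl5 followed at 6.54 ± 2.73 CPM per kb, Slc22a18 at 0.990 ± 0.384, Ascl2 at 0.475 ± 0.576 and Kcnq1 at 0.0388 ± 0.0308. Of neighbours in this order, Osbpl5 and Slc22a18 alone differed by more than the larger of their SDs. In shLacZ the order was Grb10 at 13.96 ± 8.26 CPM per kb, Phlda2 at 11.6 ± 14.3, Cdkn1c at 8.24 ± 5.73, Zim1 at 4.36 ± 0.541, Osbpl5 at 1.72 ± 0.152, Ascl2 at 0.334 ± 0.0819, Slc22a18 at 0.265 ± 0.0616 and Kcnq1 at 0.0108 ± 0.0217. There, Zim1 and Osbpl5, Osbpl5 and Ascl2, and Slc22a18 and Kcnq1 differed by more than the larger SD. Over the 14 libraries sorted by CPM, neighbours overlapped in their counting intervals in 3 of 13 pairs for Grb10, 6 for Cdkn1c, 7 for Zim1, 9 each for Osbpl5 and Phlda2, 11 for Slc22a18 and 13 each for Ascl2 and Kcnq1.

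The rest of distal chromosome 7 did not move as a block. Of 15 other genes of the region 12 were tested, and 3 were higher over d6 to d12 and 0 lower, against 19.6% and 18.7% of all genes tested, with a median log2 fold of 0.11. Igf2, the paternally expressed growth factor gene, was higher by 2.87 (SE 0.16, edgeR adjusted p = 0.000229), from 907 CPM on average in shLacZ to 6694 CPM. H19, the maternally expressed noncoding RNA beside it, was higher by 0.89 (SE 0.12, edgeR adjusted p = 0.00211). Trpm5, with 0 to 3 reads in the shLacZ libraries and up to 80 in the others, was also called higher (edgeR adjusted p = 0.0157). At the floor in shLacZ, it gives no support as 1 of the 3. The largest fall, that of Tnfrsf22, did not pass (-0.95, edgeR adjusted p = 0.0736). Between Cdkn1c and Osbpl5, Nap1l4 (0.16, adjusted p = 0.0799) and Cars (-0.09, adjusted p = 0.452) did not pass edgeR's test. Kcnq1ot1 measured 35.6 to 39.5 CPM in shLacZ and 26.1 to 37.2 CPM in the other line over d6 to d12 (log2 fold -0.27, SE 0.11, edgeR adjusted p = 0.0997). Over chromosome 7 as a whole, 229 of 1080 protein-coding genes were higher (21.2%) and 196 lower (18.1%), close to the 22.1% and 20.4% of all 14147 protein-coding genes tested.

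**Figure D3:**
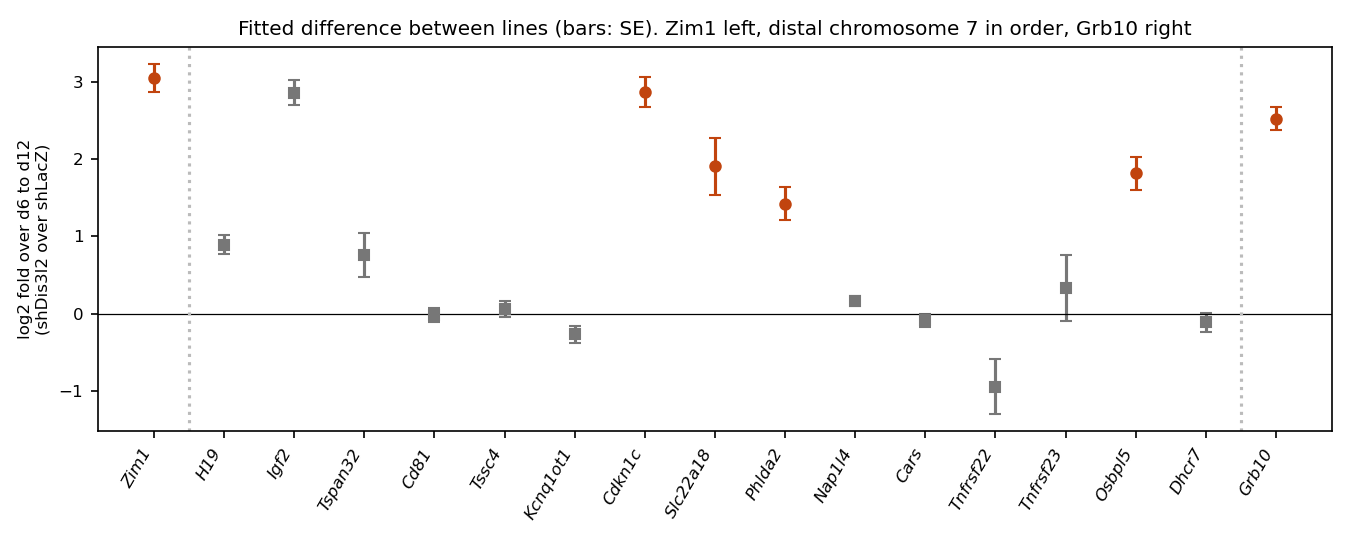
Fitted log2 difference between the lines over d6 to d12, with SE, for 6 members (orange circles) and for other genes of distal chromosome 7 in chromosome order (grey squares), without Trpm5, which was at the floor in shLacZ, with Zim1 at the left and Grb10 at the right. Cdkn1c, Slc22a18 and Phlda2 stood at 2.87, 1.91 and 1.43, next to Nap1l4 and Cars at 0.16 and -0.09.

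Lists of related genes are read against the same background of 19.6% higher and 18.7% lower. Of 23 tested genes known for maternal expression, 9 were higher and 0 lower (median log2 fold 0.50), among them Dcn, a matrix proteoglycan gene (4.15, SE 0.28, edgeR adjusted p = 0.000339). The 9 include Cpa4, at 1.53 CPM on average in the libraries labelled shDis3l2 and 0.0484 CPM in shLacZ. That call is no support, as Cpa4 was near the floor in shLacZ. The 9 also include H19, already counted above for distal chromosome 7. Tspan32, Cd81, Tssc4 and Nap1l4 were likewise in both lists and did not pass edgeR's test. Among the 23, the largest fall was that of Mirg, which did not pass (-0.26, edgeR adjusted p = 0.0755). Of 24 genes known for paternal expression, 11 were higher and 6 lower (median 0.42). Among those with a mean of at least 5 CPM, Dlk1 had the largest rise (2.90, SE 0.10, edgeR adjusted p = 0.00011) and Snrpn the largest fall (-1.10, SE 0.28, adjusted p = 0.0198), while the lower Peg13 fell by 2.56 (SE 0.36, adjusted p = 0.00241). The 6 lower genes of this list include Rasgrf1, at 1.53 CPM on average in shLacZ and 0.735 CPM in the libraries labelled shDis3l2. That call is no support, as the latter lay under the limit of 0.834 CPM. A mixed list of 24 factors held genes that set, keep, read or remove imprints or methylation, or silence genes. Of these, 5 were higher and 7 lower (median -0.04), the first a share near the background. Tet2, of methylation removal, stood at 1.11 (SE 0.21, edgeR adjusted p = 0.00700) and the methylation cofactor gene Dnmt3l at -2.38 (SE 0.41, adjusted p = 0.00502). Of 13 tested partners and paralogs of the members, 3 were higher and 5 lower (median -0.22), with Igf1r, a receptor that Grb10 binds, at 0.55 (SE 0.10, edgeR adjusted p = 0.00616) and the paralog Grb7 at -1.32 (SE 0.10, adjusted p = 0.000417).

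Markers of several cell types also differed between the lines, some higher and some lower. Of 11 mesenchyme markers 9 were higher over d6 to d12 and 0 lower (median log2 fold 2.16), and their summed level ran from 436 to 1790 CPM in shLacZ and from 1138 to 15997 CPM in the libraries labelled shDis3l2. In the latter the sum was lowest at d6 and highest at d12 of these days. Cdkn1c, Grb10 and Phlda2 were instead highest at d6 in that line, and Zim1 and Osbpl5 at d10. Col1a2 was higher by 3.68 (SE 0.25, edgeR adjusted p = 0.000339) and Pdgfra did not pass (0.17, adjusted p = 0.231). All 10 visceral endoderm markers were lower (median -1.73), with sums from 3629 to 8045 CPM against 737 to 2372 CPM, and Apob fell by 2.25 (SE 0.11, edgeR adjusted p = 0.000189). Of 7 pluripotent cell markers 6 were lower, with sums from 378 to 539 CPM against 64.1 to 368 CPM, and all 4 tested of 5 cardiomyocyte markers were higher, with sums from 7.07 to 20.8 CPM against 15.2 to 136 CPM. Of 9 tested of 14 trophoblast markers 2 were higher and 2 lower, with sums from 113 to 296 CPM against 112 to 451 CPM and Prl3d1 at or under the floor in every library. Hand1 had the largest late average of this list, 74.5 CPM in shLacZ and 136 CPM in the other line. Elf5, Prl2c2, Gcm1, Syna and Ctsq averaged under 1 CPM in both lines and added little to the sums. Of 6 neural markers 1 was higher and 2 lower (sums 37.3 to 87.2 against 70.9 to 181 CPM), of 4 endothelial markers 1 was higher and 0 lower (86.4 to 199 against 191 to 373 CPM), and of 4 blood markers 2 were higher and 0 lower (4.86 to 603 against 31.2 to 809 CPM). The 2 lower neural markers include Sox1, at 2.63 CPM on average in shLacZ and 0.446 CPM in the other line. That call is no support, as the latter lay under the limit of 0.834 CPM. The part of these cell types in the members' differences was not tested. At d0, in the libraries labelled as ESCs, the pluripotent markers summed to 3050 CPM in shLacZ and 2159 CPM in the other line, the highest sum of each line.

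**Figure D4:**
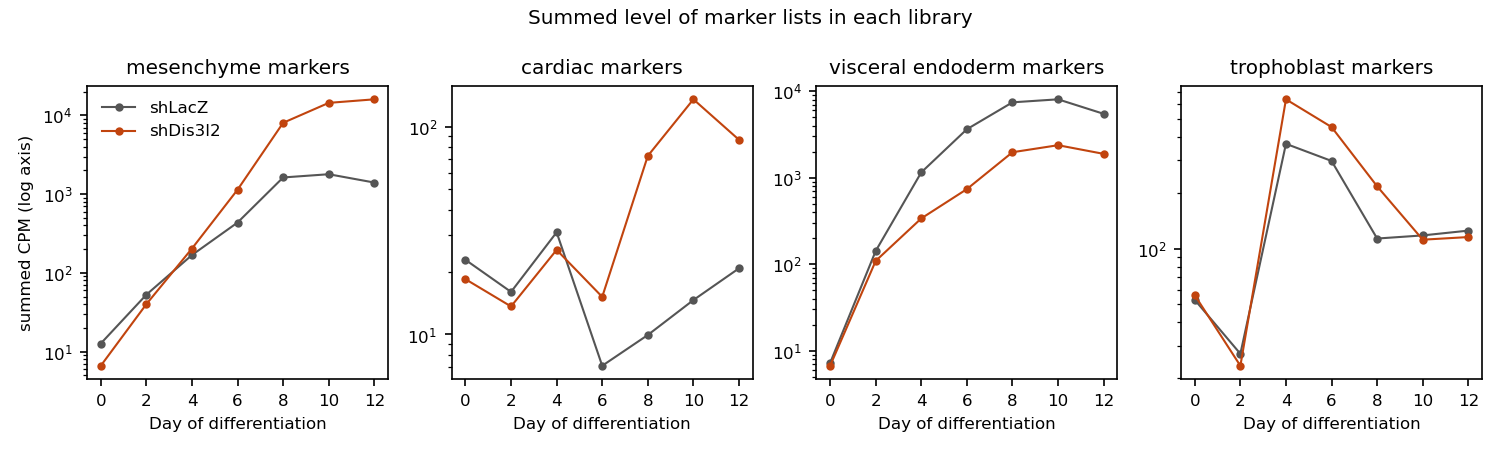
Summed CPM of the mesenchyme, cardiomyocyte, visceral endoderm and trophoblast marker lists by day (log axes, 1 scale per panel) in shLacZ (grey) and the libraries labelled shDis3l2 (orange), 1 library per point. Mesenchyme sums reached 15997 CPM against at most 1790 CPM in shLacZ, and visceral endoderm sums reached 2372 CPM against 8045 CPM.

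Over the 14 libraries the likeness of the members is given as Pearson's r of log2(CPM + 1) and as a description, since the libraries share lines and days. Zim1 and Osbpl5 (r = 0.98), Cdkn1c and Grb10 (0.95) and Zim1 and Grb10 (0.89) varied together, whereas Ascl2 ran opposite to Zim1 (-0.71) and Osbpl5 (-0.71), and Phlda2 was near none of them (0.09 with Zim1, 0.40 with Grb10). Slc22a18 had r of 0.41 with Ascl2 and -0.49 with Zim1. Among 11086 protein-coding genes with a mean of at least 5 CPM, the most alike were Ltbp1, Fbn1 and Dzip1 for Zim1 (0.99 each), Tmem260, Zbtb20 and Col5a1 for Osbpl5 (0.98 each), and Marcks and Sh3bgrl for Grb10 (0.98 each). For Cdkn1c they were Acap3, Mxra8 and Grb10 (0.96, 0.96 and 0.95), for Phlda2 Cdc25c, Kcnip3 and Cyth2 (0.90, 0.87 and 0.87), for Slc22a18 Tbcb, Atp5h and Tfpt (0.97 each) and for Ascl2 Ptp4a3, Sptbn4 and Gpat2 (0.93 each). The r of Slc22a18 rested on d0, with 10.3 and 15.1 CPM there and at most 2.54 CPM in any other library. By Spearman's rho its most alike genes were instead Sdhaf1, Fblim1 and Pkig.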

How the data were processed

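RNA of 14 libraries was analysed. The deposited counts were whole-number read counts per gene, which the authors made with Subread and featureCounts on GRCm38, as the submitters' processing notes and the study's methods name. The deposited CPM were, tested on the files, the count plus 0.25, scaled to the total over the listed genes, and the authors' table, which lists protein-coding genes past a filter on low values, served as an alternative scale. The deposited gene lengths, another column of both tables, gave the CPM per kb. Symbols of the count table were taken from GENCODE M21. Counts were fitted with edgeR's quasi-likelihood test (glmQLFit, TMM, filterByExpr) with Benjamini-Hochberg adjustment at 0.05, and DESeq2 was an alternative. Single-day folds have exact Clopper-Pearson intervals of the ratio of reads, and a floor of 3 reads. The scripts were tested on simulated data. Named beside the members were, per list, the largest rise and the largest fall among genes with a mean of at least 5 CPM, genes of distal chromosome 7, and for each member the 3 most alike genes, of which 1 is not reported here. Members and lists were chosen with earlier results of these data known. Peg13 was named after its values were seen.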

Additional observations from a re-analysis of the deposited data

Results flagged for a closer look

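The difference between the 2 lines changed between d0 to d4 and d6 to d12 for 4 members, by edgeR's test of that change. The log2 difference was larger in the later stage by 3.04 for Zim1, 2.48 for Grb10, 2.32 for Osbpl5 and 2.20 for Cdkn1c. With 1 library per line and day, no library could be tested as standing apart within a group.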

How the results depend on the processing

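The 6 calls over d6 to d12 kept their direction in every alternative, and all 6 stayed called with library totals, DESeq2, no filter and each day left out. Among the 6, the call of Slc22a18 is no support, for the reason given above. Phlda2 lost its call without the day block (log2 fold 1.32, adjusted p = 0.354), when 1896 genes were called higher and 1445 lower against 3365 and 3209. With each day left out these were 1695 to 3441 and 1641 to 3237, and with d8 and d10 left out, added after the data were seen, 0 members and 0 and 0 genes were called. Over the 7 days, DESeq2 called 1065 genes higher and 1446 lower, no filter 847 and 1246, and leaving out the day block, or d8 and d10, gave 0 members and 0 and 0 genes, against 3 members and 382 and 765 genes. Leaving out each day gave 0 to 5 members, 1 to 842 genes higher and 7 to 1348 lower, and Ascl2 from -0.086 to 0.36. For the change between stages, 0 members and 0 and 0 genes were called without the day block, and 1 member, Zim1, with 22 genes higher and 2 lower, without d8 and d10, against 4 members, 972 and 1051. No filter called 1788 genes higher and library totals 415 lower, and leaving out each day gave 315 to 1169 higher and 209 to 982 lower. The change for Ascl2, -0.18, was 0.015 with library totals, 0.084 without the day block, 0.080 without d8 and d10, and -1.01 to 0.34 with each day left out. Between d0 to d4 and d6 to d12, DESeq2 called 1 member lower in place of 2, each left-out day 1 to 2 with 2942 to 5376 genes lower, and without d8 and d10 0 members were called in either direction, with 1029 genes higher and 418 lower against 3294 and 4507. Phlda2, at -0.22, was 0.41 without d8 and d10 and ran from -1.43 to 0.46 with each day left out, and Slc22a18 from -3.60 to 0.43. On single days with no minimum CPM, 1 member was called higher at d0, Kcnq1, on 2 reads in shLacZ and 5 in the other line. In the same setting Zim1 was called lower at d0, on 8 and 1 reads, and Ascl2 at d6, on 9 and 1 reads. At a fold of 2, 1 member, Cdkn1c, was called higher at d4. No share of all genes is given for these settings, so such calls are descriptions. The cause of these shifts was not tested, beyond the fewer libraries where days were left out. Of 153 single-day folds under other scalings 7 moved past their counting interval and 0 of those whose interval excluded 1 turned direction. Of the 3 genes most like each member, Spearman's rho kept from 0 to 3. The fits between lines already paired the 2 libraries of a day through the day block, and the values without it are those above. Depth limits Ascl2, Kcnq1 and Slc22a18, whose late libraries held at most 36 reads of each.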
